A study of Mus musculus with 18 samples.

Results

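Direct-pathway neurons are the striatal projection neurons that carry the D1 dopamine receptor. Their expression in *Pcm1*-/- mice was followed through 7 listed genes: *Drd1*, *Tac1*, *Pdyn*, *Slc35d3*, *Isl1*, *Ebf1* and *Eya1*. The genes were taken by symbol from a list of markers of these neurons and matched to Ensembl identifiers. No threshold on a measured value set the list, but it was drawn up with earlier results of these data known. Of the 38561 genes counted, these 7 were all found, and all 7 passed the minimum of 10 counts in any library. *Isl1* passed through its striatal and hippocampal counts only, since no frontal cortex library held more than 1 count. The data are mRNA sequencing of 18 libraries, 3 from WT and 3 from *Pcm1*-/- mice in each of 3 regions, namely frontal cortex, striatum and hippocampus. All animals were adult and of the C57 Bl6J background, with no treatment named, and the WT mice were littermates of the mutants. The mutant allele is a gene-trap insertion made in embryonic stem cells and crossed to that background for a stated minimum of 3 generations, and every cell of the animal carries it. *Pcm1* lies on chromosome 8, and no member gene lies on that chromosome. Each library is a dissected piece of tissue, so fewer cells of a type and less RNA per cell cannot be told apart.

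The D1 receptor, encoded by *Drd1*, couples to the stimulatory G protein of the striatum and raises cyclic AMP, and dopamine thereby excites these neurons. They project directly to the output nuclei of the basal ganglia and release GABA together with peptides made from *Tac1* (substance P and neurokinin A) and *Pdyn* (dynorphins), whereas the indirect-pathway neurons carry the D2 receptor and enkephalin. *Slc35d3* encodes a transporter-like membrane protein tied to D1 receptor trafficking, and *Isl1*, *Ebf1* and *Eya1* encode nuclear proteins that act while this neuron class is formed. Outside the striatum, some of these genes also mark other cells: *Drd1* and *Pdyn* are made by subsets of cortical and hippocampal neurons, and *Ebf1* by thalamic neurons and by cells of vessels.

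The libraries held 24950537 to 33405081 counts on genes. *Pcm1* measured 134 CPM (counts scaled to library size) in WT and 12.2 CPM in mutant frontal cortex, 164 and 16.7 CPM in the striatum, and 142 and 12.6 CPM in the hippocampus (means of 3 libraries), so the genotype labels held. Summed over 17 genes shared by both classes of striatal projection neuron, striatal libraries gave 11356 to 14200 CPM and the other libraries 800.0 to 1114 CPM, as the tissue labels have it. A list of 8 choroid plexus genes summed to 6056 CPM in WT striatum replicate 3 against 31.3 to 168 CPM in the other 5 striatal libraries. That library was also the lowest for *Drd1*, *Tac1* and *Pdyn*, and striatal differences between genotypes are therefore also given without it. All WT striatal libraries were sequenced in lane 5 and the mutant ones in lanes 3 and 4, and within the striatum these factors cannot be told apart.

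The promoters of 3 members are shown. *Drd1* and *Pdyn* had the largest striatal differences between genotypes, and *Slc35d3* had the largest striatal excess over the frontal cortex after *Isl1*, whose window overlaps an exon of the gene. Each sequence is the 250 bases before a RefSeq transcript start (GRCm38.p6), 5′ to 3′ on the gene's own strand, from windows that overlap no exon of the gene. *Drd1* is encoded on the minus strand of chromosome 13, and the window of its other listed start is chr13:54054781-54055030. *Pdyn* is on the minus strand of chromosome 2 (window chr2:129699939-129700188), and *Slc35d3* on the minus strand of chromosome 10 (window chr10:19851460-19851709). Capitals mark the searched letters: CCCNNGGG, the core bound by EBF proteins, in *Pdyn*, and TGACG, the short core of the cyclic AMP response element (here on the other strand, as CGTCA), in *Slc35d3*.
Drd1: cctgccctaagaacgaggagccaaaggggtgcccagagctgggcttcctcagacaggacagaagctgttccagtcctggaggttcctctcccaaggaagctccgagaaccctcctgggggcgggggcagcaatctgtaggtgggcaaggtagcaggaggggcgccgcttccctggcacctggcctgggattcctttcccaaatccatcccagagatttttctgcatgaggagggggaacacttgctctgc
Pdyn: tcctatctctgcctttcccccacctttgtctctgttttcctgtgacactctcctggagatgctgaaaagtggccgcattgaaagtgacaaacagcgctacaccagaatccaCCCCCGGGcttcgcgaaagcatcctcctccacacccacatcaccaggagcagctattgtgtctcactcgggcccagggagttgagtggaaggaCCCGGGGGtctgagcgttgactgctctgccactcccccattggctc
Slc35d3: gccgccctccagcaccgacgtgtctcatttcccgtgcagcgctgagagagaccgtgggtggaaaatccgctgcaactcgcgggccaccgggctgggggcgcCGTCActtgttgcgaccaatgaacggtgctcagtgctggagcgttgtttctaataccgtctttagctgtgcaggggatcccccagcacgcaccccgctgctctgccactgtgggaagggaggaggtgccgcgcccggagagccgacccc
The *Drd1* window held none of the 5 motifs searched on both strands. The printed *Pdyn* window held 2 matches to CCCNNGGG, and the *Slc35d3* window held 1 TGACG, 149 bases before the start. The window of another listed *Pdyn* start (chr2:129698659-129698908), also free of exons of the gene, held none of the 5 motifs. In windows not printed here, *Tac1* had TGACG at 197 and 43 bases before its start and 1 match to TAATTA, a core bound by homeodomain proteins, and *Isl1* had TGACG at 59 and 41 bases. Of 32851 windows of this length from 27025 genes, 11.8% held CCCNNGGG, 17.8% TGACG, 4.84% TAATTA, 12.4% TATAAA (the TATA box) and 1.55% TGACGTCA, the full cyclic AMP response element, which contains TGACG. A window was matched for 6 of the 7 members, not for *Eya1*. A match in these letters is a description of the sequence only.

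Where the members were expressed was compared between regions within animals. Animals were matched by the numbers in the deposited names, which place WT striatum replicates 1, 2 and 3 with WT frontal cortex and hippocampus replicates 3, 1 and 2, while in mutants the replicate numbers follow the animals. The sample labels do not give the animals, so this match could not be checked, and ratios by replicate number are given beside those within animals. In WT mice, 7 of 7 members were higher in the striatum than in the frontal cortex at an adjusted p under 0.05 (edgeR's quasi-likelihood test, 6 animals as blocks), a call that 27.1% of the 17545 tested genes also received. Against the hippocampus 6 of 7 were higher, where 20.6% of genes were, and the exception was *Eya1*. In mutants 7 of 7 were higher than in the cortex (27.7% of genes), and against the hippocampus 6 were higher (22.2%) and *Eya1* was lower (24.0%). The hippocampus of WT mice exceeded the frontal cortex for 4 members, *Isl1*, *Ebf1*, *Eya1* and *Slc35d3* (21.0% of genes), and was lower for *Drd1*, *Tac1* and *Pdyn* (22.1%). Of these WT calls 2 lay near the threshold, *Tac1* (edgeR adjusted p = 0.0296) and *Slc35d3* (0.0339), and were lost when most single libraries were left out. *Tac1* was lost without frontal cortex replicate 1 or 2 or hippocampus replicate 1 or 2 (adjusted p from 0.0621 to 0.155), with no animal block (0.0604) and with animals matched by replicate number (0.0730). *Slc35d3* was lost without any 1 of the 6 libraries other than frontal cortex replicate 1 (adjusted p from 0.0622 to 0.133). In mutants 2 members, *Eya1* and *Slc35d3*, were higher there (21.3%) and the same 3 lower (21.5%). On a scale that corrects for exon length (CPM per kb), the order of the members in WT striatum was *Drd1* at 104 ± 14.8 (SD, n = 3), *Tac1* at 62.9 ± 10.1, *Pdyn* at 49.6 ± 7.16, *Slc35d3* at 23.9 ± 1.93, *Isl1* at 4.55 ± 0.395, *Ebf1* at 3.49 ± 0.365 and *Eya1* at 2.39 ± 0.200 CPM per kb. The libraries of *Tac1* (51.3 to 69.7) and *Pdyn* (41.3 to 54.0) overlapped, as no other neighbours in that order did. In mutant striatum the order was the same, from *Drd1* at 158 ± 8.43 to *Eya1* at 1.96 ± 0.193 CPM per kb, and *Tac1* (77.6 to 88.1) and *Pdyn* (65.3 to 87.7) overlapped again.

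**Figure D1:**
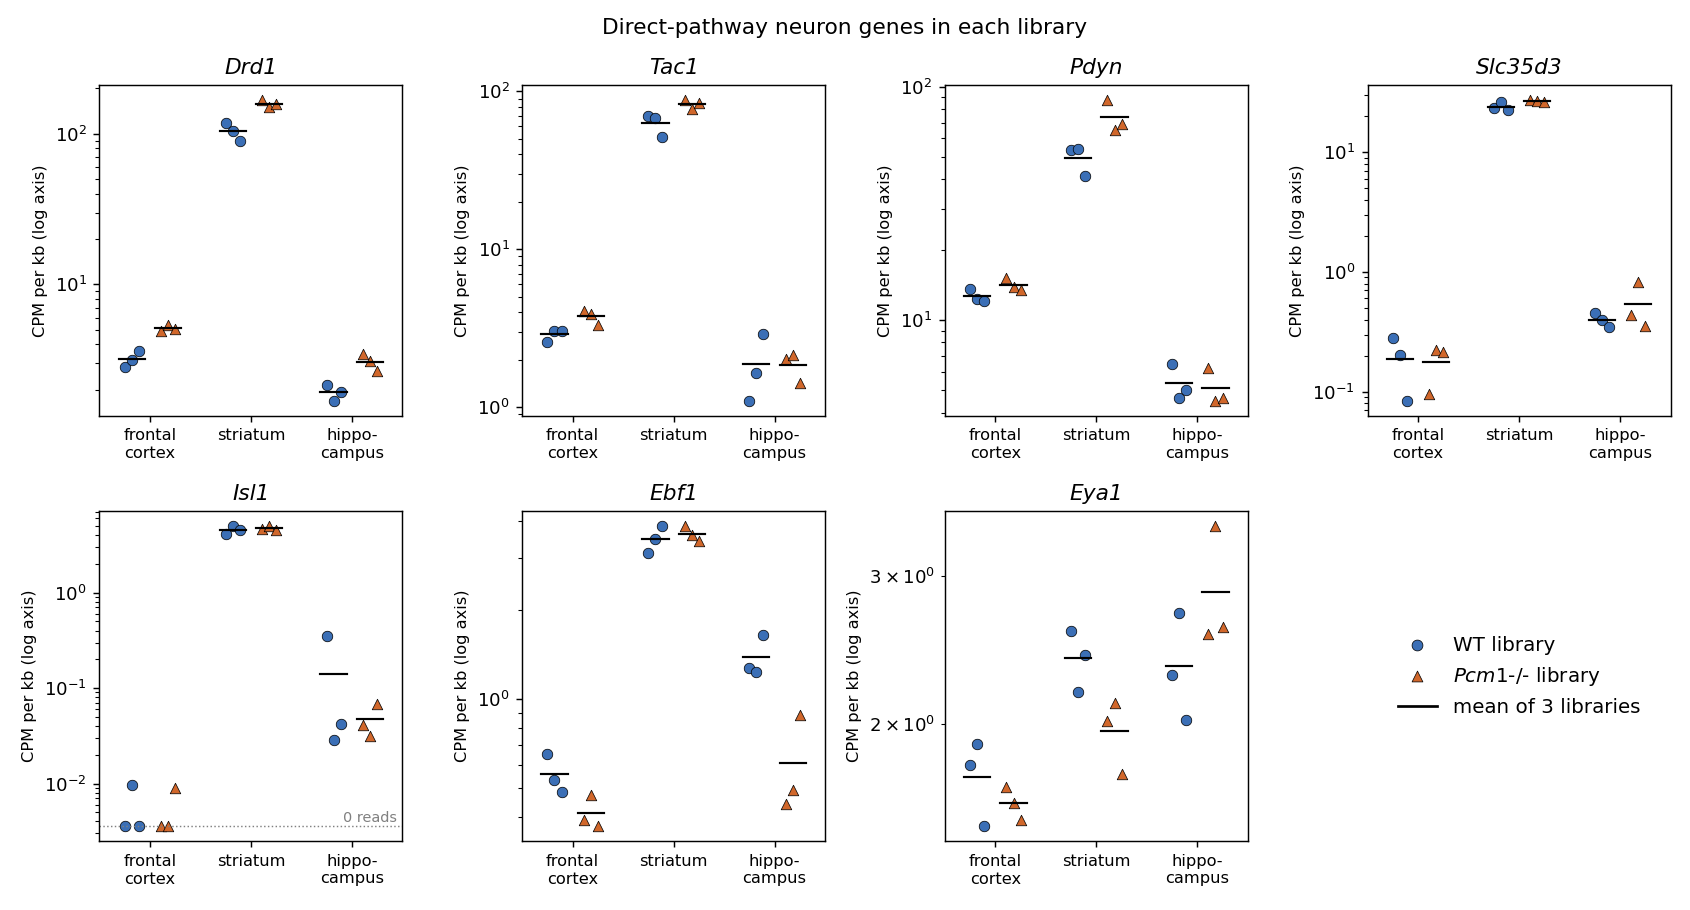
Level of each direct-pathway gene in the 18 libraries, in CPM per kb of exon on a log axis whose range differs between panels. Circles are WT and triangles *Pcm1*-/- libraries, lines are means of 3, and libraries with no *Isl1* count sit on the dotted line. The striatal libraries lie above those of both other regions in every panel except that of *Eya1*.

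The receptor gene *Drd1* (ENSMUSG00000021478, GRCm38 chromosome 13, 54051183 to 54055705, minus strand) measured 430.3, 378 and 323 CPM in WT striatum. WT frontal cortex gave 10.3, 11.4 and 13.1 CPM and WT hippocampus 7.78, 6.14 and 6.99 CPM, so that no region overlapped another. Within an animal the striatal value was 28.3 to 36.8 times the cortical and 48.5 to 61.6 times the hippocampal one (24.7 to 41.9 and 46.2 to 61.5 times by replicate number), with log2 differences of 5.02 (SE 0.108) and 5.75 (SE 0.114). In mutants these ratios were 28.1 to 33.9 and 48.3 to 59.2, inside or close to the WT ranges. The hippocampus was lower than the frontal cortex in both genotypes (log2 difference −0.73, SE 0.112, in WT and −0.74, SE 0.103, in mutants).

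The peptide genes were less alike. *Tac1* (ENSMUSG00000061762, chromosome 6, 7554879 to 7565834, plus strand) measured 237, 230.0 and 174 CPM in WT striatum, and 8.79 to 10.4 CPM in WT frontal cortex. In WT hippocampus *Tac1* spread from 3.74 to 9.88 CPM, overlapping the cortex. *Pdyn* (ENSMUSG00000027400, chromosome 2, 129686565 to 129699844, minus strand) had the smallest striatal excess over the cortex after *Eya1*. WT striatum gave 154, 156 and 119 CPM, frontal cortex 39.2, 35.5 and 34.7 CPM and hippocampus 18.6, 13.4 and 14.5 CPM. The log2 difference between striatum and frontal cortex was 1.96 (SE 0.0855) for *Pdyn* and 4.44 (SE 0.201) for *Tac1*, and between striatum and hippocampus 3.21 (SE 0.0917) and 5.09 (SE 0.210). *Pdyn* was thus a message of all 3 regions, with the striatal libraries 3.36 to 4.45 times the cortical ones of the same WT animals (3.44 to 4.39 times by replicate number).

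*Slc35d3* (ENSMUSG00000050473, chromosome 10, 19847916 to 19851459, minus strand) was close to absent outside the striatum. WT striatum measured 61.2, 68.5 and 58.8 CPM. Frontal cortex libraries of both genotypes held 6 to 21 counts and hippocampal libraries 27 to 52. The WT striatum exceeded the frontal cortex by 6.97 on the log2 scale (SE 0.238) and the hippocampus by 5.90 (SE 0.214).

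Among the transcription regulators, *Isl1* (ENSMUSG00000042258, chromosome 13, 116298281 to 116309689, minus strand), a LIM homeodomain factor, was read almost only in the striatum. WT striatum measured 16.5, 19.6 and 18 CPM, and the 3 WT frontal cortex libraries held 1 *Isl1* count in all. With so few counts the fold is given as a rate ratio with an exact interval for counting error only. Striatum against frontal cortex gave 1507 counts against 1 in WT, a ratio of 1477 (95% interval 265 to 58388), and 1638 against 1 in mutants, a ratio of 1745 (313 to 68962). Hippocampal libraries held 3 to 9 counts, except for 36 in WT replicate 1, and the ratio of striatum to hippocampus was 33.8 (25.0 to 46.7) in WT and 97.0 (60.4 to 167) in mutants. The difference between these ratios rests on that library.

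*Ebf1* (ENSMUSG00000057098, chromosome 11, 44617317 to 45008091, plus strand), an early B-cell factor, was spread more widely. It measured 30.6, 34 and 37.7 CPM in WT striatum, 6.37, 5.21 and 4.72 CPM in WT frontal cortex and 12.5, 12.1 and 16.1 CPM in WT hippocampus. The 3 regions did not overlap, and the log2 difference was 2.65 (SE 0.215) between striatum and cortex and 1.33 (SE 0.198) between striatum and hippocampus. An antisense gene, *Gm12158*, overlaps *Ebf1*, and since the strand setting of the counting is not stated, reads of the pair cannot be told apart.

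*Eya1* (ENSMUSG00000025932, chromosome 1, 14168954 to 14310235, minus strand), a phosphatase and transcriptional co-activator, was no striatal marker in these libraries. WT striatum measured 20.1, 17 and 18.9 CPM, WT frontal cortex 13.9, 14.8 and 11.8 CPM and WT hippocampus 17.9, 21.2 and 15.8 CPM. The WT striatum exceeded the cortex by only 0.48 on the log2 scale (SE 0.111, edgeR adjusted p = 0.00281). The difference from the hippocampus was 0.04 (SE 0.109, adjusted p = 0.793), and in mutants the striatum was lower than the hippocampus (log2 difference −0.55, SE 0.109, adjusted p = 0.00109). In mutants its excess over the cortex was 0.28 (SE 0.111, adjusted p = 0.0474), and leaving out any 1 of the 6 mutant libraries compared ended that call (adjusted p from 0.0543 to 0.252), as did DESeq2 (0.0594), matching the animals by replicate number (0.0626) and leaving out the animal block (0.0821). With lane beside the animal block the difference was 0.09 (adjusted p = 0.570).

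The effect of genotype was then tested in each region, 3 mutant against 3 WT libraries. *Drd1* was higher in mutants in every region, by ratios of the means of 1.61 for frontal cortex, 1.52 for striatum and 1.60 for hippocampus, but the test called it in the frontal cortex only. There, 1 of the 7 members rose, against 1.41% of all tested genes, and 0 fell, against 0.336%. At an unadjusted p under 0.05, 2 were higher and 1 lower there (7.84% and 7.47% of genes), and DESeq2 called *Drd1* alone, where it called 3.42% of genes higher. In the striatum edgeR called 0 of 7 members, where it called 0.0228% of genes higher and 0.00570% lower. At an unadjusted p under 0.05 there were 4 members higher and 1 lower (6.54% and 6.98% of genes), and DESeq2 called 3 members higher, *Drd1*, *Pdyn* and *Tac1*, where it called 2.12% of genes. In the hippocampus edgeR again called 0 of 7 (0.0114% of genes higher and 0.00570% lower), with 1 member higher and 1 lower at an unadjusted p under 0.05 (4.84% and 5.06% of genes). DESeq2 called *Drd1* higher and *Ebf1* lower there, where it called 0.861% and 0.910% of genes. The median log2 fold change of the members was −0.11 for frontal cortex, 0.16 for striatum and −0.05 for hippocampus, beside −0.0066, −0.0023 and −0.00033 over all tested genes.

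In the frontal cortex, *Drd1* measured 17.9, 19.5 and 18.4 CPM in mutants and 10.3, 11.4 and 13.1 CPM in WT mice. The groups did not overlap, as was the case for 12% of tested genes in this direction. *Drd1* rose by 0.68 on the log2 scale (SE 0.0985, edgeR adjusted p = 0.0177) and stood at rank 77 by p among 17545 genes. In the striatum *Drd1* measured 607, 547 and 568 CPM in mutants against 430.3, 378 and 323 CPM in WT mice, again with no overlap (9.60% of genes in this direction). The log2 difference was 0.61 (SE 0.107, edgeR adjusted p = 0.123, rank 64), and 0.51 (adjusted p = 0.113) without WT replicate 3. In the hippocampus mutants measured 12.5, 11.3 and 9.61 CPM and WT mice 7.78, 6.14 and 6.99 CPM, with no overlap (10.6% of genes in this direction) and a log2 difference of 0.66 (SE 0.150, edgeR adjusted p = 0.391). *Drd1* was higher in mutants in all 15 alternative fits of frontal cortex, all 14 of striatum and all 15 of hippocampus, and the call in the frontal cortex held in 10 of 15. It was lost with lane in the fit of that region alone (0.58, adjusted p = 0.0719) and without WT replicate 2 or any mutant replicate (adjusted p from 0.0722 to 0.101). In the frontal cortex the 17 striatal genes summed to 1050 to 1068 CPM in WT and 1047 to 1114 CPM in mutants, which overlapped. A list of 5 blood genes summed to 109 to 175 CPM in WT and 35.8 to 79.0 CPM in mutant cortex, with all 5 negative, and the oligodendrocyte list to 1972 to 2624 and 1765 to 1872 CPM, with all 8 negative. The 8 microglia genes, also all negative, summed to 435 to 574 CPM in WT and 378 to 432 CPM in mutant cortex (6 lower at an unadjusted p under 0.05). EdgeR called 0 genes of these 3 lists there, and DESeq2 called 3 of the blood, 1 of the oligodendrocyte and 2 of the microglia genes, at lower levels. Over all genes DESeq2 called 690 of 13414 in the frontal cortex in either direction. The 9 cortical excitatory neuron genes summed to 2804 to 2856 CPM in WT and 3169 to 3371 CPM in mutants, which did not overlap. Of these, both tools called *Slc17a7*, the vesicular glutamate transporter of cortical neurons, which rose from 1942 to 2340 CPM (log2 0.26, SE 0.0490, edgeR adjusted p = 0.0396). The interneuron peptide gene *Sst* rose from 144 to 195 CPM (log2 0.43, SE 0.0832, edgeR adjusted p = 0.0426), and DESeq2 called *Sst* and *Npy* higher. The part of these cells in the *Drd1* values was not tested.

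**Figure D2:**
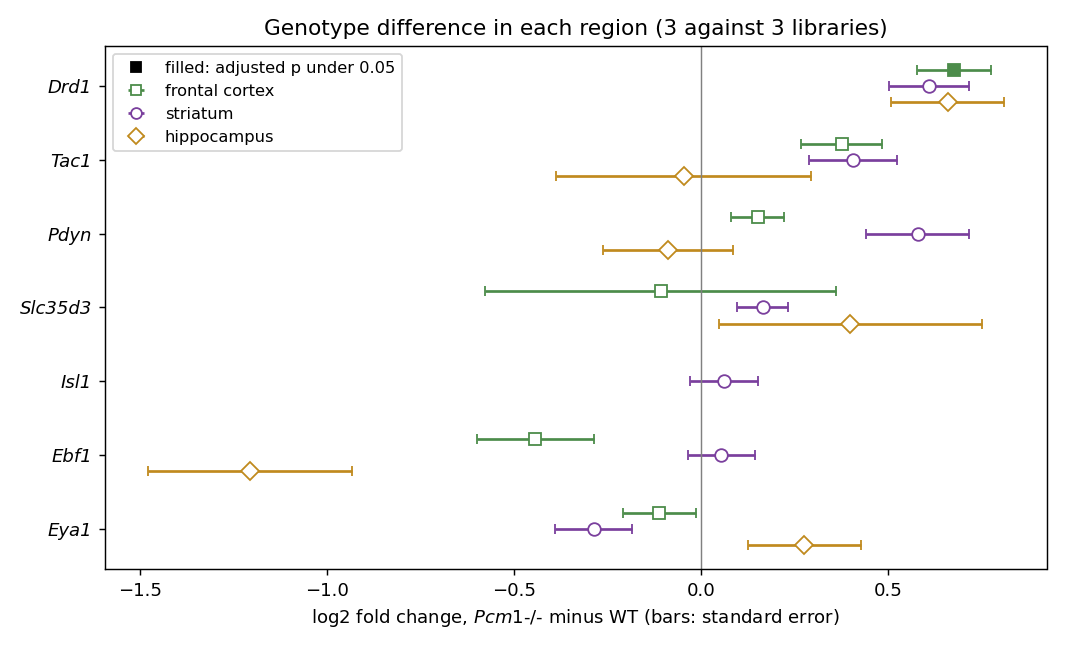
Log2 fold change of each member between *Pcm1*-/- and WT mice in each region, with the standard error of edgeR's fit (3 against 3 libraries). The filled symbol, *Drd1* in the frontal cortex at 0.68, is the only difference past an adjusted p of 0.05, and *Isl1* is drawn for the striatum only.

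The peptide genes had the next largest striatal differences. *Pdyn* measured 253, 189 and 199 CPM in mutant and 154, 156 and 119 CPM in WT striatum, with no overlap and a ratio of the means of 1.49. Its log2 difference was 0.58 (SE 0.138, edgeR adjusted p = 0.177), and 0.46 (adjusted p = 0.186) without WT replicate 3. *Tac1* measured 299.6, 264 and 286 CPM in mutant and 237, 230.0 and 174 CPM in WT striatum, also without overlap, with a log2 difference of 0.41 (SE 0.117, edgeR adjusted p = 0.220). Without WT replicate 3 it was 0.28 (adjusted p = 0.187). In the frontal cortex the *Tac1* groups did not overlap either (13.8, 13.3 and 11.3 against 8.79, 10.3 and 10.4 CPM), with a log2 difference of 0.38 (SE 0.108, adjusted p = 0.141). *Pdyn* overlapped there by a small margin, from 38.8 to 43.5 CPM in mutants and from 34.7 to 39.2 CPM in WT mice. In the hippocampus both peptide genes overlapped widely, with log2 differences of −0.05 (SE 0.342) for *Tac1* and −0.09 (SE 0.174) for *Pdyn*.

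Of the remaining members, *Slc35d3*, *Isl1* and *Ebf1* differed little in the striatum, and *Eya1* was lower in mutants without a call. *Slc35d3* measured 71.7, 70.4 and 68.9 CPM in mutants and 61.2, 68.5 and 58.8 CPM in WT mice. The groups did not overlap, but their nearest libraries stood at 68.9 and 68.5 CPM, and the log2 difference was 0.16 (SE 0.0685, adjusted p = 0.355). It was 0.12 without WT replicate 3 and −0.18 with lane in a fit of all 18 libraries. *Isl1* (18.5, 19.9 and 17.8 against 16.5, 19.6 and 18 CPM) and *Ebf1* (37.5, 35 and 33.5 against 30.6, 34 and 37.7 CPM) overlapped, with log2 differences of 0.06 (SE 0.0905) and 0.05 (SE 0.0894). Without WT replicate 3 these were 0.06 and 0.13, and with lane in the 18-library fit −0.48 and 0.37. *Eya1* was the member with lower striatal values in mutants, 15.7, 16.5 and 13.6 against 20.1, 17 and 18.9 CPM. Its groups did not overlap (9.39% of genes in this direction), and the log2 difference was −0.29 (SE 0.103, adjusted p = 0.289), with −0.28 without WT replicate 3 and −0.52 with lane in the 18-library fit.

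Markers of other cell classes were summed in the striatum beside the members. The summed level of 8 oligodendrocyte genes ran from 9496 to 9708 CPM in WT and from 5772 to 9370 CPM in mutant striatum, and all 8 had negative log2 differences. Of 8 microglia genes all 8 were negative (577 to 844 CPM in WT and 521 to 602 CPM in mutants). The 9 cortical excitatory neuron genes, which sum to 1902 to 3371 CPM in the other regions, summed to 58.1, 89.0 and 129.6 CPM in WT and 56.9, 66.8 and 68.4 CPM in mutant striatum. EdgeR called 0 genes of these 3 lists in the striatum, with 5, 7 and 2 lower at an unadjusted p under 0.05, and DESeq2 called 1, 4 and 0, namely *Cldn11*, *P2ry12*, *Tmem119*, *C1qa* and *C1qb*, at lower levels. Over all genes DESeq2 called 488 of 12722 in the striatum in either direction. The 5 blood genes summed to 71.8 to 227 CPM in WT and 43.9 to 92.2 CPM in mutant striatum, with 5 of 5 lower at an unadjusted p under 0.05 and a median of −1.02. Of 8 astrocyte genes 4 were lower at that p, without overlap, but the summed levels overlapped (5691 to 7115 and 5357 to 7373 CPM). Of 8 ependymal genes 3 were higher (the list's sum reached 70.1 CPM in WT and 70.2 CPM in mutants, and its lowest WT library stood at 32.6 CPM), and DESeq2 called *Tmem212* among them. EdgeR called 0 genes of these 3 lists too, and DESeq2 called 0 of the blood and astrocyte genes. Without WT replicate 3, the genes lower at an unadjusted p under 0.05 were 3 oligodendrocyte, 8 microglia, 3 cortical, 0 blood and 4 astrocyte genes, and 6 ependymal genes were higher. The 8 hippocampal excitatory neuron genes summed to 256 to 285 CPM in WT and 304 to 392 CPM in mutant striatum, which did not overlap. DESeq2 called *Prox1* and *Wfs1* of that list, 1 higher and 1 lower. Without WT replicate 3, 1 gene of that list was higher and 1 lower at an unadjusted p under 0.05. The part of these cells in the differences of the members was not tested.

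Because the tissue can hold more or less of the projection neurons, the members were set against the summed CPM of the 17 genes shared by both classes, which was 13409, 12169 and 11356 CPM in WT and 14200, 12636 and 13758 CPM in mutants. *Drd1* was 3.21%, 3.10% and 2.84% of that sum in WT and 4.28%, 4.33% and 4.13% in mutant striatum. The ratio of the means was 1.39, against 1.52 for the CPM itself, and the groups did not overlap, as for 2.84% of tested genes in this direction on this scale. *Pdyn* was 1.15%, 1.28% and 1.05% in WT against 1.78%, 1.49% and 1.45% in mutants, a ratio of 1.36. *Tac1* was 1.77%, 1.89% and 1.54% against 2.11%, 2.09% and 2.08%, a ratio of 1.21. On this scale *Slc35d3* (ratio 1.02), *Isl1* (0.945) and *Ebf1* (0.935) overlapped between genotypes, and *Eya1* was lower in mutants (ratio 0.745, no overlap, as for 15.6% of genes in this direction). Without WT replicate 3 the ratios were 1.35 for *Drd1*, 1.29 for *Pdyn*, 1.14 for *Tac1*, 1.02 for *Slc35d3*, 0.981 for *Isl1*, 1.03 for *Ebf1* and 0.782 for *Eya1*, and the same 4 members did not overlap. With only 2 WT libraries, 7.93% of all genes did not overlap in the higher and 18.6% in the lower direction. An exact permutation test of 3 against 3 libraries cannot give a p under 0.1, and no other test of these shares was made.

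**Figure D3:**
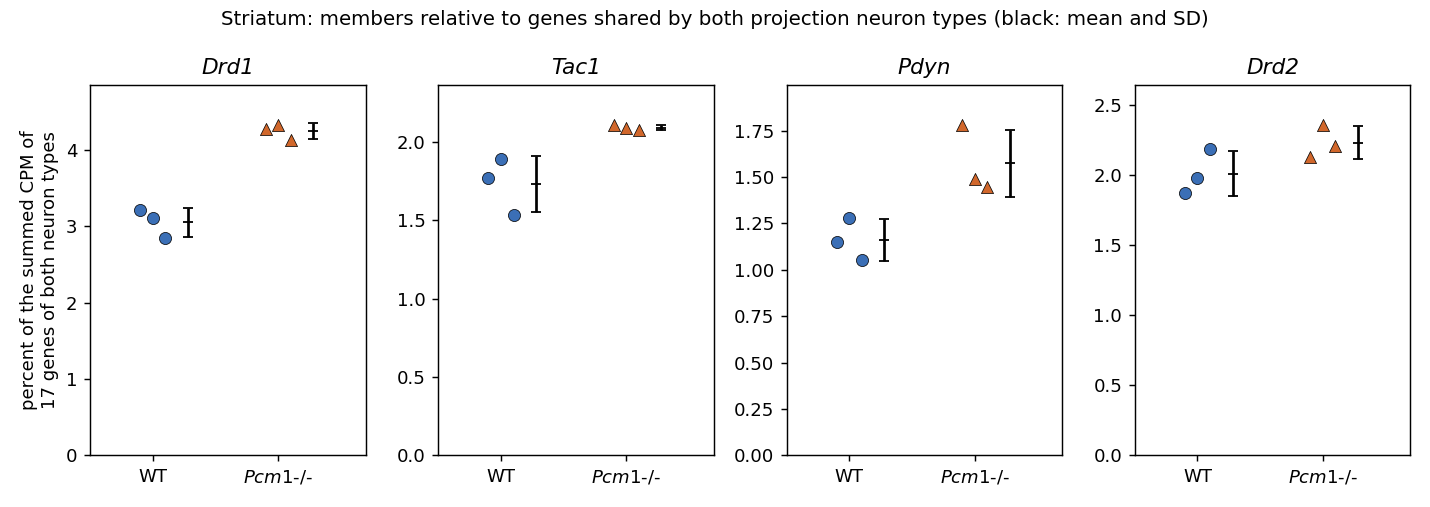
*Drd1*, *Tac1*, *Pdyn* and, for comparison, *Drd2* in the 6 striatal libraries, each as percent of the summed CPM of 17 genes shared by direct- and indirect-pathway neurons, on axes that start at 0. Bars give the mean and SD of 3 libraries. The mutant libraries of *Drd1* (4.13% to 4.33%) lie above all WT libraries (2.84% to 3.21%), and those of *Drd2* overlap the WT ones when all 3 WT libraries are used.

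The D2 receptor gene *Drd2*, the counterpart in the indirect-pathway neurons, measured 302, 299 and 304 CPM in mutant and 251, 241 and 248 CPM in WT striatum (log2 difference 0.29, SE 0.0561, edgeR adjusted p = 0.128), and the difference was also 0.29 without WT replicate 3. As a share of the 17-gene sum it overlapped, with means of 2.23% and 2.01%, but without WT replicate 3 the WT mean was 1.93% and the groups did not overlap. The ratio of *Drd1* to *Drd2* CPM was 2.01, 1.83 and 1.87 in mutant and 1.71, 1.57 and 1.30 in WT striatum. The ratio of *Drd1* to *Tac1* was 2.03 ± 0.0420 in mutants and 1.77 ± 0.112 in WT mice (SD, n = 3 each). These did not overlap, and neither did the ratio of *Drd1* to 76.7% of all genes read in every striatal library. The ratio of *Drd1* to *Pdyn* was 2.72 ± 0.278 and 2.64 ± 0.191 and overlapped. Without WT replicate 3 the WT means of the ratios to *Drd2*, *Tac1* and *Pdyn* were 1.64, 1.73 and 2.61. In the hippocampus *Drd1* and *Drd2* differed in opposite directions, and their ratio was 4.59, 3.07 and 3.69 in mutants and 1.52, 1.53 and 1.58 in WT mice. There, *Drd2* measured 2.73, 3.69 and 2.60 CPM in mutants and 5.12, 4.01 and 4.43 CPM in WT mice. Its log2 difference was −0.61 (SE 0.198, edgeR adjusted p = 0.426), and neither edgeR nor DESeq2 called it.

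Whether the genotype effect differed between regions was tested as an interaction. EdgeR called 0 members and 0% of all genes for each of the 3 pairs of regions. At an unadjusted p under 0.05 there was 1 member for striatum and frontal cortex (3.21% of genes with a positive and 4.41% with a negative sign). There were 3 for striatum and hippocampus (2.67% and 3.12%) and 2 for hippocampus and frontal cortex (3.69% and 4.09%). For *Drd1* the 3 differences between regions were −0.07 (SE 0.135), −0.06 (SE 0.142) and −0.01 (SE 0.154), with adjusted p from 0.959 to 1. *Pdyn* had the largest in relation to its error. Its genotype effect in the striatum exceeded that in the hippocampus by 0.65 (SE 0.124, edgeR adjusted p = 0.223, rank 11 by p) and that in the frontal cortex by 0.41 (SE 0.117, adjusted p = 0.343). Within animals, striatal *Pdyn* was 14.1 to 14.9 times the hippocampal level in mutants and 8.37 to 10.6 times in WT mice (8.22 to 11.6 times by replicate number). On either match these did not overlap, and within animals the same held for 3.76% of the genes read in every hippocampal library. With animals matched by replicate number the difference was 0.65 (edgeR adjusted p = 0.349). DESeq2 called 2 members for striatum and hippocampus, *Pdyn* and *Ebf1*, where it called 0.572% of genes, and 0 members for the other pairs, where it called 0.658% (striatum and frontal cortex) and 0.611% (hippocampus and frontal cortex).

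*Ebf1* had the largest difference of any member read in more than a few counts, in the hippocampus and not in the striatum. Hippocampal libraries measured 4.31, 4.82 and 8.62 CPM in mutants and 12.5, 12.1 and 16.1 CPM in WT mice. The groups did not overlap (6.46% of genes in this direction), and the log2 difference was −1.21 (SE 0.273, edgeR adjusted p = 0.391). The interaction of striatum and hippocampus was 1.26 (SE 0.287, adjusted p = 0.250). In the frontal cortex *Ebf1* measured 3.79, 4.63 and 3.62 CPM in mutants and 6.37, 5.21 and 4.72 CPM in WT mice, without overlap (9.28% of genes) and with a log2 difference of −0.44 (SE 0.156, adjusted p = 0.222).

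Markers of thalamic and other neurons at the border of the dissection are given beside *Ebf1*, since their values were also mostly lower in mutant hippocampus. The 7 genes of that list summed to 793, 455 and 814 CPM in WT and 264, 281 and 476 CPM in mutant hippocampus. All 7 had negative log2 differences with a median of −1.49, among them *Slc17a6*, the vesicular glutamate transporter of the thalamus (85.8 CPM in WT and 30.8 CPM in mutants), and *Lef1* (19.4 and 6.60 CPM), which DESeq2 called. EdgeR called none of the 7, and 6 passed at an unadjusted p under 0.05. Mutant replicate 3, the highest of its group for *Ebf1*, was also the highest for this list, and without it the *Ebf1* difference was −1.60 (adjusted p = 0.0935). The choroid plexus list ran from 2181 to 6364 CPM in WT and from 225 to 4217 CPM in mutant hippocampus. The 8 endothelial genes ran from 209 to 276 CPM and from 190.0 to 203 CPM, and the 5 blood genes from 125 to 216 CPM and from 33.3 to 69.8 CPM. All 8 oligodendrocyte genes were negative (median −0.53, summed level 5013 to 9959 CPM in WT and 3787 to 6227 CPM in mutants), and so were all 8 microglia genes (451 to 680 and 422 to 491 CPM), with 1 of each list past an unadjusted p of 0.05. EdgeR called 0 genes of these lists in the hippocampus. DESeq2 called 4 of the 5 blood genes and the astrocyte gene *Aqp4* (293 CPM in WT and 215 CPM in mutants) lower and *Slc17a7* (1455 and 2018 CPM) higher, and 0 of the choroid plexus, endothelial, oligodendrocyte and microglia genes. *Aqp4* was the only call among 8 astrocyte genes. Their summed levels overlapped, from 6235 to 6931 CPM in WT and from 6635 to 7264 CPM in mutant hippocampus. The part of these tissues in the *Ebf1* and *Drd1* values was not tested.

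**Figure D4:**
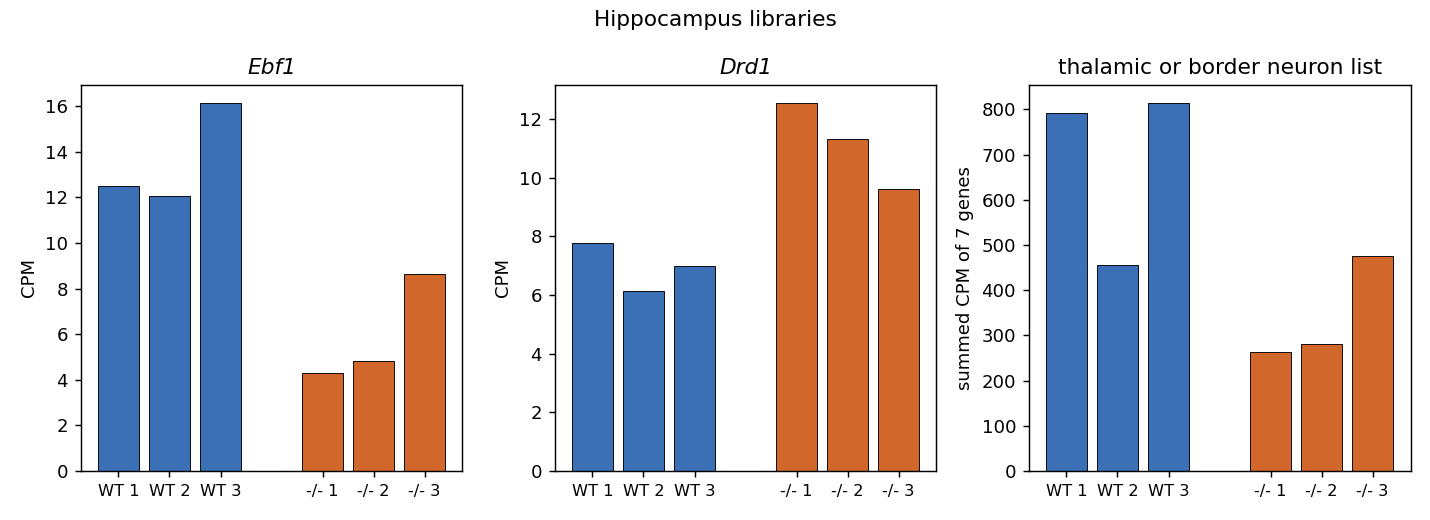
Bars give the CPM of *Ebf1*, the CPM of *Drd1* and the summed CPM of 7 thalamic or border neuron genes in the 6 hippocampus libraries (WT 1 to 3 and *Pcm1*-/- 1 to 3). *Ebf1* was lower and *Drd1* higher in every mutant library than in every WT library, and the border list ran from 264 to 476 CPM in mutants and from 455 to 814 CPM in WT mice.

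The remaining members outside the striatum varied within the spread of the libraries. In the hippocampus *Eya1* measured 20, 26.9 and 20.3 CPM in mutants and 17.9, 21.2 and 15.8 CPM in WT mice (log2 difference 0.28, SE 0.150, adjusted p = 0.581). The genotype effect of *Eya1* in the striatum minus that in the hippocampus was −0.59 (SE 0.154, adjusted p = 0.332). Cortical *Eya1* differed by −0.11 (SE 0.0985, adjusted p = 0.646). *Slc35d3* overlapped in both regions, with differences of −0.11 (SE 0.468) in the frontal cortex and 0.40 (SE 0.351) in the hippocampus. *Isl1* was read in 0 or 1 counts in each cortical library, which allows no comparison of genotypes, and its hippocampal difference of −1.51 (SE 0.943) rests on the WT library with 36 counts. The interactions not yet given had edgeR adjusted p from 0.576 to 1. For striatum and frontal cortex they were 0.03 for *Tac1*, −0.20 for *Eya1*, 0.27 for *Slc35d3*, 0.49 for *Ebf1* and 0.11 for *Isl1*. For striatum and hippocampus they were 0.42 for *Tac1*, −0.21 for *Slc35d3* and 1.39 for *Isl1*. For hippocampus and frontal cortex they were −0.39 for *Tac1*, −0.23 for *Pdyn*, 0.39 for *Eya1*, 0.49 for *Slc35d3*, −0.78 for *Ebf1* and −1.28 for *Isl1*.

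Genes that work beside the members were taken from lists of the same neurons and of their signalling. Of 3 other genes of direct-pathway neurons, the muscarinic receptor gene *Chrm4*, whose product opposes D1 signalling, rose in the frontal cortex from 51.0 to 78.1 CPM (log2 0.61, SE 0.0725, edgeR adjusted p = 0.00927). In the striatum *Chrm4* measured 122 CPM in WT and 165 CPM in mutants (log2 0.43, SE 0.104, adjusted p = 0.18, and 0.36 without WT replicate 3), and in the hippocampus 15.6 and 29.8 CPM (log2 0.91, SE 0.197, adjusted p = 0.391). DESeq2 called *Chrm4* higher in all 3 regions. As a share of the 17-gene sum, striatal *Chrm4* was 1.22% in mutants and 0.988% in WT mice, without overlap. *Sfxn1* and *Zfp521* lay between −0.13 and −0.01 on the log2 scale in the 3 regions. The receptors for the peptides of these neurons gave no edgeR call among 4 genes in any region. At an unadjusted p under 0.05, 1 of them was higher in frontal cortex and 3 in striatum. Hippocampal levels were lower for 2, the tachykinin receptor genes *Tacr3* (2.63 CPM in WT and 0.925 CPM in mutants) and *Tacr1* (5.90 and 2.66 CPM). The kappa opioid receptor gene *Oprk1*, which dynorphin activates, measured 5.81 CPM in WT and 11.2 CPM in mutant frontal cortex (log2 0.94, SE 0.240, adjusted p = 0.10) and 29.9 and 42.4 CPM in the striatum (log2 0.50, SE 0.133, adjusted p = 0.201), and DESeq2 called it higher in both regions.

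The signalling chain below the D1 receptor held no edgeR call. Of 19 genes, from the G protein subunit *Gnal* and the adenylyl cyclase *Adcy5* to protein kinase A subunits and *Ppp1r1b* (DARPP-32), edgeR called 0 in each region, while at an unadjusted p under 0.05 there were 1 (frontal cortex) and 2 (striatum) higher and 1 (hippocampus) lower. DESeq2 called *Dusp1* higher in the frontal cortex and none elsewhere. The median log2 difference of these 19 genes was 0.03, 0.07 and 0.03 in the 3 regions. *Adcy5* measured 1776 ± 249 CPM in WT and 2146 ± 186 CPM in mutant striatum (log2 0.27, SE 0.116, adjusted p = 0.361), and the difference was 0.18 without WT replicate 3. Of the 17 genes shared by both classes, edgeR called 0 in the striatum (2 at an unadjusted p under 0.05), with a median of 0.09 and 15 of 17 positive. In the frontal cortex *Meis2*, a homeodomain factor, fell by 0.28 (SE 0.0537, edgeR adjusted p = 0.0414). Of 5 striosome genes edgeR and DESeq2 called 0 in each region, with 2 at an unadjusted p under 0.05 in the striatum and 0 in the others.

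For the indirect-pathway neurons, 8 genes were tested. *Penk*, the enkephalin precursor gene, rose in the frontal cortex from 49.2 to 95.6 CPM (log2 0.95, SE 0.108, edgeR adjusted p = 0.00816), and in the striatum it measured 1597 CPM in WT and 1877 CPM in mutants (log2 0.24, SE 0.0796, adjusted p = 0.267). The list was split in the frontal cortex, with 4 positive and 4 negative differences, and 2 higher and 1 lower at an unadjusted p under 0.05. In the hippocampus edgeR and DESeq2 called 0 of the 8. At that p 0 were higher and 3 lower there, with a median of −0.11. In the striatum edgeR called 0 of the 8, 4 were higher at an unadjusted p under 0.05, and DESeq2 called *Drd2*, *Adora2a* and *Gpr6* higher. The median log2 difference was 0.25 for these 8 genes and 0.16 for the 7 members.

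The genes whose level followed *Drd1* most closely over the 18 libraries were *Rasd2*, *Gpr6*, *Rarb*, ENSMUSG00000098220, *Rgs2*, *Penk*, *Adcy5*, *Fam102b*, *Ptpn5* and *Ppp1ca*, with Pearson correlations of log2 CPM from 0.993 to 0.991 among 12869 genes. These 18 points share 3 regions, and the correlation is a description of the contrast between striatum and the rest. Of the members, *Tac1* stood at 0.990, *Pdyn* at 0.954, *Slc35d3* at 0.944, *Isl1* at 0.909, *Ebf1* at 0.814 and *Eya1* at −0.01. After the mean of each region and genotype was removed, the closest genes were *Myo1c* (0.843), *Itga11*, *Lrrtm4*, *Map3k4*, *2900026A02Rik*, *Slc24a4*, *Mgea5*, *Arap2*, *Gtf3c1* and *Swap70* (0.768). On that scale *Pdyn* stood at 0.608, *Tac1* at 0.262 and *Ebf1* at −0.571 with *Drd1*. The libraries of 1 animal and of 1 lane share these deviations, and no test was made. The closest genes were picked as the highest of 12869 over few libraries, so no link to *Drd1* can be read from them.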

How the data were processed

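The authors dissected and froze the regions of each animal, prepared libraries with a kit that keeps strand and selects mRNA, trimmed reads with Trim Galore and Cutadapt (at least 20 nt), aligned them to GRCm38 with STAR and used HTSeq to count the uniquely placed reads on Ensembl genes. They deposited raw counts per gene, 1 library per file, with no normalization. The tools' versions and the strand setting are not given in the sources used here. Reads not assigned to a gene (10.8% to 13.2%) were left out.

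Genotype effects were tested per region (3 against 3 libraries) with edgeR 4.0.16 in R 4.3.3: TMM factors, quasi-likelihood test, 17545 genes with at least 10 counts in any library, Benjamini-Hochberg adjustment, threshold 0.05. The SE is the size of the log2 fold change over the root of its F statistic. Region contrasts and interactions came from 1 fit of 18 libraries with 6 animals as blocks, the animals read from the deposited names (WT striatal replicates are numbered in another order there). CPM used TMM factors over all 18 libraries, and log2 CPM a prior count of 2. Gene lengths and positions came from GENCODE M21, another release than the authors' annotation (36639 genes matched). Pairs of replicates all differed beyond sampling noise (chi-square per degree of freedom 6.61 to 54.9). That they are separate animals follows from the deposited names.

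The members, lists, tests and alternatives were chosen with earlier results of these data known. The rule named all 7 members in every comparison. Of other lists, counts are given and values for at most the 5 genes with the smallest p, and of the genes like *Drd1* the 10 closest by each measure. Alternatives were DESeq2 1.42.0, its size factors, other filters, the replicate number or the lane in the model, a pooled fit, and leaving out each library. A fit without edgeR's legacy setting, shares of the 17-gene sum, animals matched by replicate number and the shares without WT striatum replicate 3 were added after seeing the data. On counts simulated for 17545 genes, the genotype test recovered 67%, 43% and 18% of genes changed by 0.5 on the log2 scale in frontal cortex, striatum and hippocampus, and 96%, 90% and 82% of those changed by 1. False calls were 10.9%, 5% and 5.66% of all calls. The changed genes, 100 of each size, were drawn only from genes above a set minimum of mean counts in the region. The shares recovered therefore do not cover rare messages, such as *Isl1* outside the striatum or *Slc35d3* in frontal cortex and hippocampus. *Gpr52* and *Slc18a3* were not analysed here, and a DESeq2 result on the 17-gene list in the striatum is not reported here.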

Additional observations from a re-analysis of the deposited data

How the results depend on the processing

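Precision rests on 3 libraries a group, and for rare messages on few reads (0 to 36 counts a library for *Isl1* outside the striatum, 6 to 21 for *Slc35d3* in the frontal cortex). Among single members, leaving out a library kept direction and call in 570 fits, reversed 39, weakened 19 and strengthened 2, and the other alternatives kept them in 650, reversed 10, weakened 7 and strengthened 17. A result that was not called and stayed so counts as kept, and the large contrasts between regions are included. These counts therefore do not measure how stable the genotype calls were. Where not named, the cause was not tested.

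Members called in the frontal cortex were 1, and 0 with lane within the region. In the striatum they were 0, but 3 with DESeq2, 1 with no filter and 1 in the fit of 18 libraries. In the hippocampus they were 0, but 2 each with DESeq2, the 18-library fit and that fit with lane. The interaction of striatum and hippocampus called 0 members and 2 with DESeq2. Leaving out 1 library gave 0 to 1 members in the frontal cortex and 0 to 1 in that interaction.

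Of all genes, the 306 calls in the frontal cortex became 690 with DESeq2, 544 with no filter, 29 with lane within the region, 176 in the 18-library fit and 95 with lane there. They became 11 to 825 when 1 library was left out (88, 71 and 825 without WT replicates 1, 2 and 3, and 11, 27 and 54 without mutant replicates 1, 2 and 3). The 5 in the striatum became 488 with DESeq2, 65 with no filter, 54 in the 18-library fit and 8 with lane there, and 2 to 5 without 1 library. The 3 in the hippocampus became 220 with DESeq2, 205 in the 18-library fit and 160 with lane there, and 1 to 11 without 1 library. For the interactions, calls were 0. For striatum and frontal cortex they were 64 with DESeq2, 6 with no filter, 2 without the legacy setting, 1 with no animal block, 1 with animals matched by replicate number and 0 to 3 without 1 library. For striatum and hippocampus they were 79 with DESeq2, 1 with no filter and 0 to 6, and for hippocampus and frontal cortex 74 with DESeq2, 10 with no filter, 1 with no animal block and 0 to 89, the last without WT hippocampus replicate 2.

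Replicate numbers are shared by the genotypes, but same-numbered libraries did not all deviate together (correlations 0.0428 to 0.260 in the frontal cortex, −0.269 to 0.178 in the striatum and 0.0955 to 0.507 in the hippocampus), so they share a number only. In the frontal cortex each library correlated best with its own number, which is a hint from the data and not from the design. The replicate block gave 665, 3 and 9 calls over all genes in frontal cortex, striatum and hippocampus, turned hippocampal *Tac1* to 0.033 and left the *Drd1* call in the frontal cortex (adjusted p = 0.00798).

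Signs turned in the following cases. With lane in the 18-library fit, frontal cortex and striatum gave 0.21 and −0.48 for *Isl1* and 0.087 and −0.18 for *Slc35d3*. *Slc35d3* was 0.24 in the frontal cortex with lane within the region. With lane beside the animal block, the striatum and frontal cortex interaction was −0.35 for *Isl1* and −0.47 for *Slc35d3*, and that of hippocampus and frontal cortex −0.081 for *Slc35d3*. With no filter it was 0.0020 for *Drd1*. Without 1 library, genotype differences ran from −0.32 to 0.41 for *Tac1*, −0.27 to 0.062 for *Pdyn*, −1.99 to 0.41 for *Isl1* and −0.026 to 0.62 for *Slc35d3* in the hippocampus. They ran from −1.95 to 1.83 for *Isl1* and −0.46 to 0.30 for *Slc35d3* in the frontal cortex, and from −0.018 to 0.13 for *Ebf1* in the striatum. *Eya1* between WT striatum and hippocampus ran from −0.12 to 0.13. Interactions of striatum and frontal cortex ran from −0.16 to 0.045 for *Drd1*, −0.13 to 0.29 for *Tac1*, −1.95 to 1.90 for *Isl1* and −0.051 to 0.63 for *Slc35d3*. Those of striatum and hippocampus ran from −0.18 to 0.030 for *Drd1*, −0.32 to 1.91 for *Isl1* and −0.46 to 0.16 for *Slc35d3*, and those of hippocampus and frontal cortex from −0.10 to 0.11 for *Drd1* and −3.34 to 0.52 for *Isl1*. Lane within the striatum could not be fitted, since it matches genotype there.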
